A study of Mus musculus with 70 samples.

Results

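Hmga2, Lin28a, Lin28b, Igf2bp1, Igf2bp2 and Igf2bp3 are genes of embryonic growth and timing, and their contacts were read from H3K4me3 PLAC-seq of mouse tissues. These 6 genes, of 20807 autosomal protein-coding genes, were taken as listed, and an interaction was counted for a gene when either of its 10-kb ends contained a transcription start site (TSS) that GENCODE gives the gene. Such bins held 475 of the 710161 interactions called in the pooled data of 12 tissue-stages and 486 of the 654181 interactions called in 24 replicate libraries. H3K4me3 PLAC-seq joins proximity ligation of chromatin to immunoprecipitation of H3K4me3, a histone mark of active gene starts, so it enriches contacts of marked promoters.

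At E12.5 the neural tissues were forebrain (FB), midbrain (MB), hindbrain (HB) and neural tube (NT). The non-neural tissues of that age were liver (LV), limb (LM) and the craniofacial prominence (CF). FB was also taken on each later day up to E16.5 and at birth (P0), and every tissue-stage had 2 biological replicates. They were whole dissected tissues of mixed cell types from C57BL/6N mice, with no genetic change or treatment in the labels. In such samples, fewer cells with a contact and a weaker contact per cell cannot be told apart. CTCF ChIP-seq peaks of the same 12 tissue-stages were set beside the interactions.

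The 6 genes share a regulatory circuit. LIN28A and LIN28B are RNA-binding proteins that block the maturation of the let-7 microRNAs, which are scarce in early embryos and accumulate as tissues differentiate. HMGA2, a chromatin protein that bends DNA, and the IGF2BP proteins, which bind and stabilise messenger RNAs, are fetal products whose transcripts let-7 represses, and Lin28a and Lin28b are let-7 targets themselves. In the forebrain, HMGA2 and LIN28B are known from young neural progenitors.

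The microRNAs of the let-7c host locus are shown because their interactions are set beside those of Hmga2 in the FB stages. The seed (bases 2 to 8) is in capitals, and the RNA sequences are those of RefSeq on GRCm38.p6.
let-7c: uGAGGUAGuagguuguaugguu
miR-99a: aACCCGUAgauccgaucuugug
miR-125b: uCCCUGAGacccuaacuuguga
The let-7c copy lies (Mirlet7c-1) at chr16:77599672-77599693, on the plus strand, inside the host locus Mir99ahg.

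CTCF is a DNA-binding protein that halts loop extrusion and so sets many contact borders, preferentially where its motifs point at each other. The CTCF motif sites below are those of the peaks at the TSS bins of Hmga2, Lin28b and Igf2bp1 and at partner bins that Hmga2 contacted in 11 (upstream) and 10 (downstream) tissue-stages and Igf2bp3 in 9. Capitals mark the 14 core positions of the 19-bp match, read on the motif strand of mm10.
Hmga2 TSS bin, forward motif, chr10:120476800-120476818: agaGCAGTGGGTGGCACcg
Hmga2 partner bin upstream, reverse motif, chr10:120702026-120702044: ggcCCAGCAGATGGCGTct
Hmga2 partner bin downstream, reverse motif, chr10:120271005-120271023: agaCCAGAAGAGGGCACta
Lin28b TSS bin, reverse motif, chr10:45485754-45485772: ctcCCGCCAGGGGGCGAgc
Igf2bp1 TSS bin, forward motif, chr11:96007432-96007450: tcgACGCCAGAGGGAGGtg
Igf2bp3 partner bin, forward motif, chr6:49057857-49057875: aggTCAACAGGGGGCAGca
A forward motif, the direction found mostly at the lower-coordinate ends of interactions, points towards higher coordinates. The Hmga2 TSS motif and the upstream partner motif therefore faced each other, whereas the downstream partner motif pointed away from the gene. The upstream partner peak was listed in all 12 tissue-stages, but the TSS peak in only 6 (MB, HB, LM, CF, FB at E14.5 and FB at E15.5).

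The totals of all interactions ranged from 11396 (LV replicate 2) to 63868 (P0 replicate 1) among the replicate libraries and from 21945 (LV) to 79677 (P0) among the pooled sets, whose reads the authors had downsampled to equal numbers. LV interactions were also short, with a median distance of 170 kb against 270 to 310 kb in the other pooled sets. Numbers per library are given below as called and after scaling each library to the median total of 25872. Of 20 tissue markers on autosomes, 12 had their largest scaled number in the tissue they mark, and the hepatocyte gene Alb had no interaction in any tissue. None of the HB markers did so, as Hoxa2 and Hoxb1 were largest in NT and Egr2 in CF. Afp was largest in LV from 1 interaction, against 2 in NT before scaling. The authors' calls have an FDR below 1%, read pairs at least 2 times the expected number and distances of 20 to 1000 kb. A pair with no call may lie below these limits, or may have gone untested where neither end has an H3K4me3 peak in the tissue.

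Hmga2 had most of the interactions of the 6 genes, and their number fell over FB development. Of the 475 pooled interactions, 279 were of Hmga2, 96 of Igf2bp1, 77 of Igf2bp3, 13 of Lin28a, 6 of Lin28b and 4 of Igf2bp2. Hmga2 (chr10:120361275-120476469, minus strand) has all its TSSs in a single bin, chr10:120470001-120480000, which holds the start of no other gene. In the pooled FB calls Hmga2 had 36, 26, 22, 12, 14 and 2 interactions over the 6 stages in order of age. The fall was not even, since E16.5 lay above E15.5, and P0 had the fewest Hmga2 interactions although its total was the largest.

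After scaling, though not as called, both E12.5 libraries lay highest and both P0 libraries lowest among the FB libraries. As called, the pairs of libraries had 22 and 13, 14 and 14, 12 and 8, 3 and 3, 10 and 10, and 3 and 1 Hmga2 interactions over the 6 FB stages in order of age. The 4 early libraries (E12.5 and E13.5) all lay above the 4 late ones (E16.5 and P0), whose ranges did not overlap with or without scaling. The scaled number was 19.2 ± 8.76 (SD, n = 4) in the early and 4.04 ± 3.63 (SD, n = 4) in the late libraries. The log2 difference, late minus early, was -2.27 ± 0.48 (SE), with an adjusted p of 0.0107 (limma, 5376 genes). Over all genes tested in this comparison, 13.4% passed the threshold of 0.05, and 4.8% did so with fewer interactions in the late stages. Library totals moved the other way, from 16075 to 30876 in the early and 35291 to 63868 in the late libraries, and their part in the result was not tested beyond the fit without scaling (-1.56, adjusted p = 0.0305). P0 weighs in this call. With E16.5 alone as the late stage the log2 difference was -1.21 and the adjusted p was 0.124, whereas a slope over E12.5 to E16.5, added after the data were seen, fell by 0.54 on the log2 scale per day with an adjusted p of 0.00536.

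**Figure D1:**
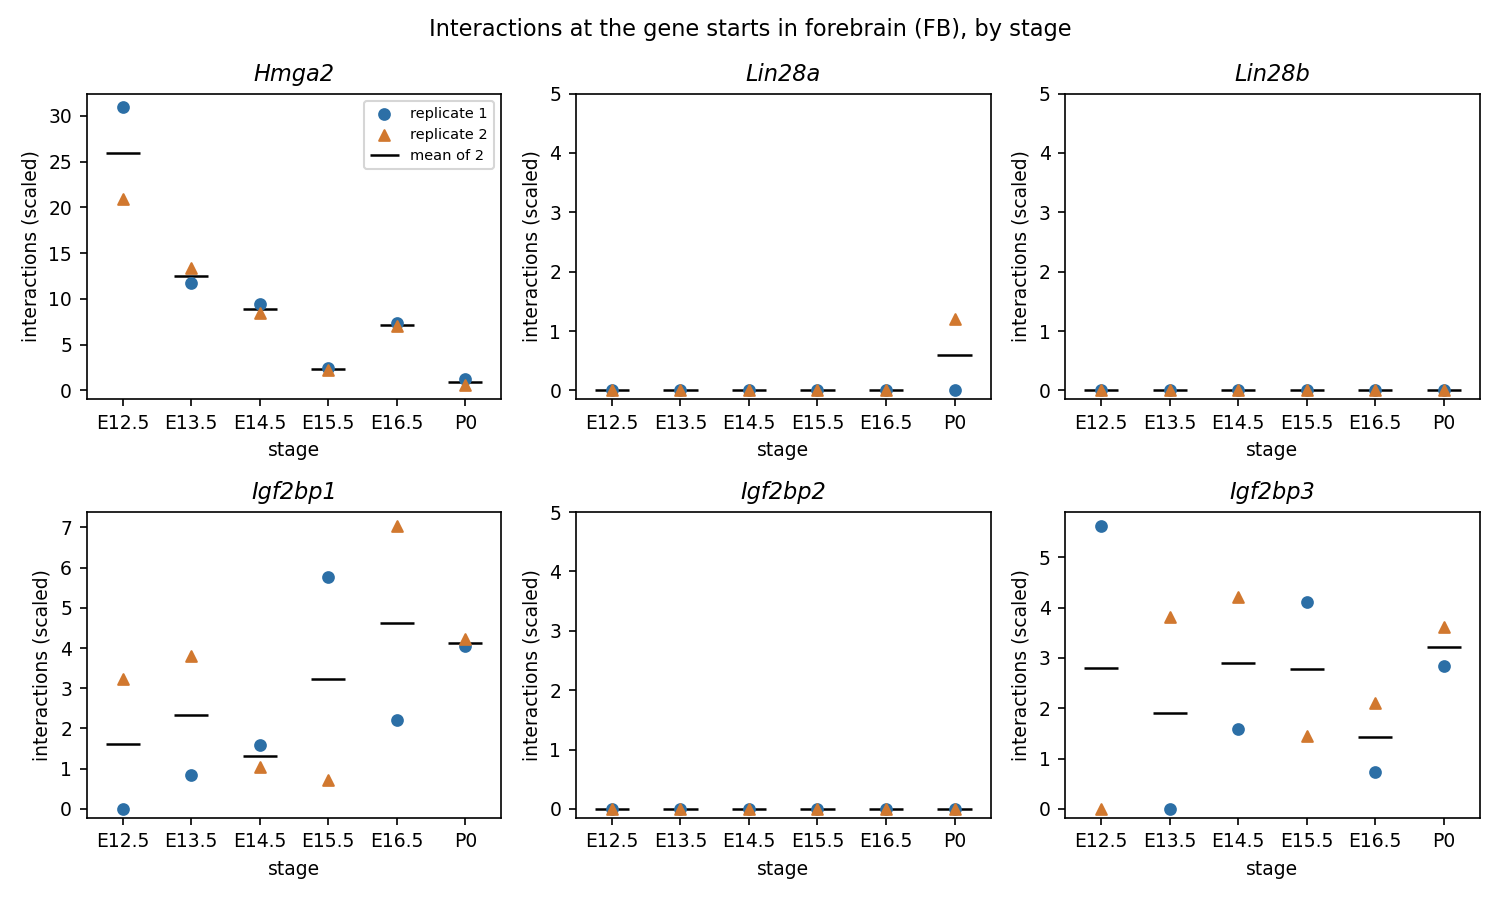
Number of interactions at the TSS bins of each gene (y axis, scaled to the median library total, with a range of its own in each panel) against FB stage (x axis). Points are single libraries and bars are means of 2. Hmga2 goes from 30.9 and 20.9 at E12.5 to 1.22 and 0.602 at P0, while the other genes stay at or below 7.03.

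Igf2bp1 and Igf2bp3, the other members with enough interactions to be tested, did not pass the threshold in the FB comparison. Igf2bp1 (chr11:95957163-96005940), an oncofetal messenger RNA-binding protein gene, had 0 and 2, 1 and 4, 2 and 1, 7 and 1, 3 and 10, and 10 and 7 interactions over the FB stages in order of age, as called. The early and late ranges of its scaled numbers overlapped, at 0 to 3.81 and 2.20 to 7.03. Its log2 difference was 1.05 ± 0.49 (SE), with an adjusted p of 0.161 in the limma fit. Without scaling the difference was 1.75 with an adjusted p of 0.0256, and the median over all genes was then 0.84 against 0.15 with scaling. Relative to all genes the difference of Igf2bp1 was thus of like size on both scales.

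Igf2bp3 (chr6:49085223-49214957), another gene of this messenger RNA-binding family, had replicates that differed as much as the stages. In the same order it had 4 and 0, 0 and 4, 2 and 4, 5 and 2, 1 and 3, and 7 and 6 interactions, as called. The scaled mean was 2.36 ± 2.82 (SD, n = 4) in the early and 2.32 ± 1.23 (SD, n = 4) in the late libraries, and the adjusted p of limma was 0.704.

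Lin28a, Lin28b and Igf2bp2 had a mean scaled number under 1, the least the test took, both in the FB comparison and in those of tissues. In FB, Lin28a had 2 interactions in P0 replicate 2 and none in the other 11 libraries, and Lin28b and Igf2bp2 had none in any of the 12. A difference between stages was not detectable for these genes at this depth.

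At E12.5 the number of Hmga2 interactions was largest in the limb and the craniofacial prominence. The pooled calls held 44 in LM, 43 in CF, 38 in NT, 36 in FB, 15 in LV, 14 in HB and 13 in MB. As called, the replicates gave 28 and 37 in LM, 28 and 23 in CF, 22 and 13 in FB, 22 and 14 in NT, 10 and 14 in HB, 11 and 9 in LV and 6 and 2 in MB. LM lay highest, at a scaled mean of 52.1 ± 8.53 (SD, n = 2), and CF followed at 35.8 ± 6.26, with ranges that did not overlap each other or that of FB, at 25.9 ± 7.06. The ranges of FB and NT overlapped, as did those of NT and LV. MB was lowest among the tissues at 4.19 ± 3.26, below the 2 HB libraries at 9.53 ± 2.62. Both FB libraries lay above both MB libraries.

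The 8 neural libraries (FB, MB, HB and NT) had a median scaled number of Hmga2 interactions of 14.2, with a lowest of 1.88 and a highest of 30.9. The 6 non-neural libraries (LM, CF and LV) had a median of 35.8, a lowest of 18.95 and a highest of 58.1. The ranges overlapped, and the means were 15.1 ± 9.89 (SD, n = 8) and 35.9 ± 15.3 (SD, n = 6). The log2 difference, neural minus non-neural, was -1.41 ± 0.45 (SE) with an adjusted p of 0.0317 (limma, 5389 genes), where 18.9% of all genes tested passed, 6.51% with fewer interactions in neural tissues. The call was lost without scaling (-0.84, adjusted p = 0.163), with TMM scaling (-1.17, adjusted p = 0.0741), in DESeq2 (-1.05, adjusted p = 0.123) and with summed read pairs (-1.73, adjusted p = 0.0788). It was also lost when any of 6 of the 14 libraries was left out (MB replicate 1, MB replicate 2, HB replicate 1, LM replicate 1, LM replicate 2 or CF replicate 1), with adjusted p from 0.0512 to 0.0671 in these fits.

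**Figure D2:**
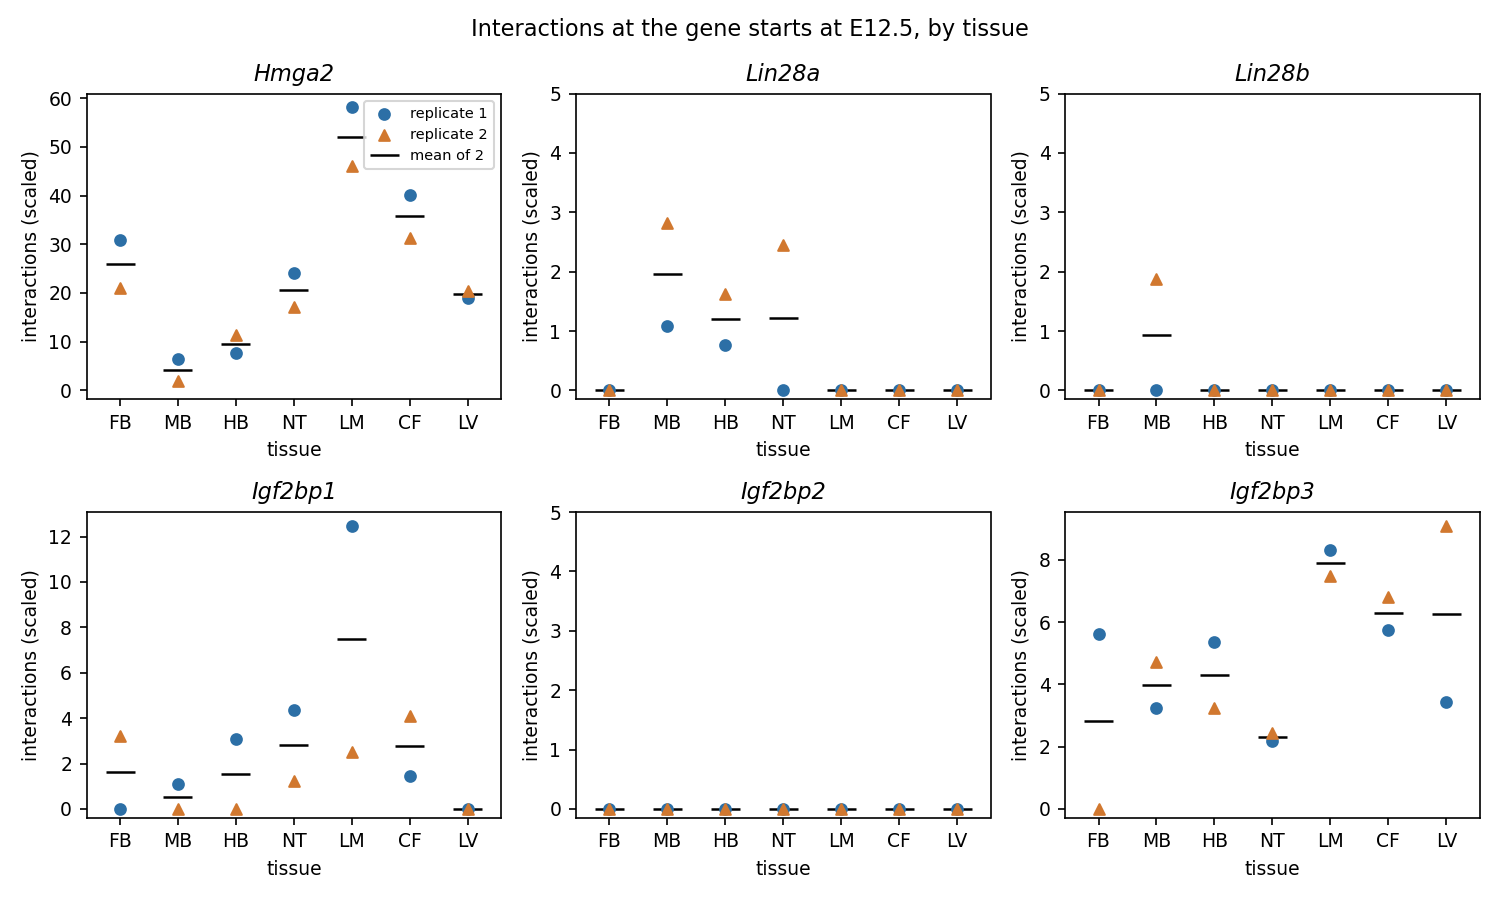
Number of interactions at the TSS bins of each gene (y axis, scaled to the median library total, with a range of its own in each panel) against tissue at E12.5 (x axis). Points are single libraries and bars are means of 2. Hmga2 is highest in LM (58.1 and 46.1) and lowest in MB (6.50 and 1.88), and Lin28b and Igf2bp2 are at or near 0 in every tissue.

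None of the 3 members tested passed the threshold in the main fits of LM, CF or LV against the other tissues, in each of which 2 libraries stood against 12. In the alternative fit with each of the 12 tissue-stages as its own group, whose spread is that between replicates, Hmga2 passed in LM (adjusted p = 0.0001) and in CF (adjusted p = 0.0176) and Igf2bp1 in LM (adjusted p = 0.0465). Many genes passed in that alternative fit, 1872 of 5389 in LM and 528 in CF. In the main fit for LM, 4.25% of all genes passed. The log2 difference of Hmga2 there was 1.67 ± 0.69 (SE), with an adjusted p of 0.161 in limma, although both LM libraries lay above all 12 others. For CF, where a single gene in 5389 passed (0.0186%), the difference of Hmga2 was 1.05 ± 0.75 with an adjusted p of 0.787. For LV, where 27.5% of genes passed, Hmga2 differed by 0.10 ± 0.79 with an adjusted p of 0.937. The LV value changed sign with the scaling, and was -0.55 without it. The scaled Hmga2 numbers of LV, 18.95 and 20.4, lay inside the range of the other 12 libraries.

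Igf2bp1 was listed at 0 interactions in both LV libraries and in the pooled LV calls. Elsewhere at E12.5 it had 6 and 2 interactions in LM, 4 and 1 in NT, 1 and 3 in CF, 0 and 2 in FB, 4 and 0 in HB and 1 and 0 in MB, as called. Replicates of a tissue differed widely, and LM replicate 1, with a scaled number of 12.5, was above all other libraries. The log2 difference of LV from the other tissues was -1.49 ± 0.79 (SE), with an adjusted p of 0.155 in limma. Igf2bp3 had 4 and 6 interactions in LM, 4 and 5 in CF, 2 and 4 in LV, 7 and 4 in HB, 3 and 5 in MB, 4 and 0 in FB and 2 and 2 in NT. Its scaled number was 3.35 ± 1.87 (SD, n = 8) in neural and 6.81 ± 2.01 (SD, n = 6) in non-neural libraries, and the adjusted p was 0.0895 (limma).

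Lin28a, the let-7 inhibitor of early embryos and stem cells, had 1 and 3 interactions in MB, 0 and 2 in NT and 1 and 2 in HB at E12.5, and none in FB, LM, CF or LV. Its pooled interactions numbered 4 in HB, 4 in LM, 2 in FB at E15.5, and 1 each in FB at E12.5, MB and FB at E14.5. All 13 were seen in 1 tissue-stage only, and none was called in a replicate of that tissue-stage. Among the replicate calls of Lin28a, 2 were made in both replicates of a tissue-stage, of 2 in the first replicates and 9 in the second. One of its TSS bins also holds a TSS of Dhdds, an enzyme gene of dolichol synthesis, and 6 of the 13 interactions end there, so they cannot be assigned to Lin28a alone. Lin28b (chr10:45376620-45486395) had 2 interactions in MB replicate 2 and none in any other library, and its 6 pooled interactions (2 in MB, 2 in LM, 1 in FB at E14.5 and 1 in FB at E16.5) all joined different pairs of bins. Igf2bp2 had no interaction in any replicate library and 4 in the pooled calls, of which LM and CF shared a partner 60 kb upstream.

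The partners of Hmga2 lay on both sides of the gene. The 279 pooled interactions joined 62 pairs of bins at a median distance of 220 kb, and 194 of them went upstream of the gene. By distance, 74 lay 200 to 300 kb upstream, 52 lay 300 to 400 kb upstream, 41 lay 100 to 200 kb downstream and 38 lay 200 to 300 kb downstream. Most partner bins hold no coding TSS, since only 5 of the 62 do. The partner bin 380 kb upstream holds a TSS of Msrb3, a methionine sulfoxide reductase gene, and was called in 11 of 12 tissue-stages, all but LV.

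The contact with this bin at 380 kb was the one of the 2 P0 interactions that replicates also called. Its observed/expected ratio was 6.71, 6.15, 4.28, 4.84, 4.98 and 3.56 over the FB stages in order of age, from 59 read pairs at the first to 18 at P0, and both P0 replicates called it. In LM it reached 8.14 and in CF 8.72, against 4.20 in MB, 3.42 in HB and 2.37 in NT. These ratios are single values of pooled calls and carry no replicate error. The next bins upstream reached higher ratios in LM, 9.14 at 390 kb and 11.7 at 400 kb. The bin at 400 kb, which like that at 420 kb also holds a TSS of Msrb3, had 6.75 in FB at E12.5 and no call at P0.

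The partner 230 kb upstream, which holds the reverse CTCF motif printed above, was called in 11 tissue-stages as well, all but FB at P0. Its ratio was 7.61 in CF, 6.69 in LM, 5.05 in HB, 4.65 in NT, 4.22 in LV, 3.95 in FB and 3.89 in MB at E12.5, and 3.36 to 3.71 in FB from E13.5 to E16.5. The partner 200 kb downstream was called in 10 tissue-stages, and its ratio was highest in LM, at 5.32. Over the FB stages the downstream interactions went from 14 at E12.5 to 7, 7, 1, 3 and 0, and the upstream ones from 22 to 19, 15, 11, 11 and 2.

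**Figure D3:**
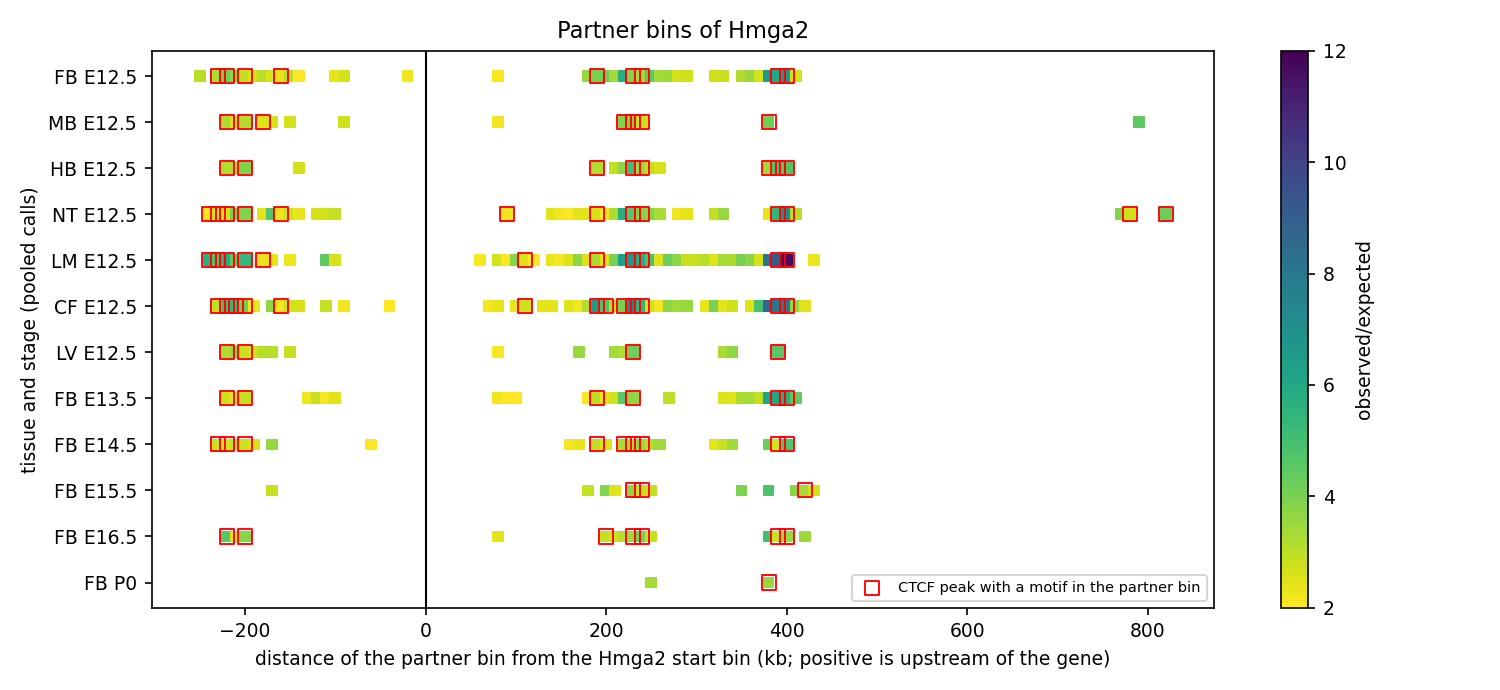
Partner bins of Hmga2 in the pooled calls, by distance from the Hmga2 TSS bin in kb (x axis, positive is upstream of the gene) and tissue-stage (y axis). Colour gives the observed/expected ratio and red frames mark partner bins with a CTCF peak that holds a motif; the bins 380 and 230 kb upstream recur in 11 tissue-stages each, and P0 keeps 2 of the partners.

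The nearest coding genes did not pass the threshold in the FB comparison. Msrb3, 422 kb away on the side of higher coordinates by its outermost TSS, had 32 pooled interactions in FB at E12.5 and 29 at P0, and its log2 difference between late and early FB was -0.21 ± 0.28 (SE; limma adjusted p = 0.656). Llph, a ribosome biogenesis gene 249 kb away on the other side, had 18 and 9, and its log2 difference was -0.93 ± 0.35 (adjusted p = 0.0835). The difference between Hmga2 and these neighbours was not tested.

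The partners of Igf2bp3 recurred across tissues. Its 77 pooled interactions joined 18 pairs of bins, and 58 of them lay 100 to 200 kb downstream. The partner 150 kb downstream was called in 11 of 12 tissue-stages, all but MB, with ratios from 2.06 in FB at E16.5 to 4.601 in FB at P0, and the partner 140 kb downstream, which holds a TSS of the mitochondrial ribosome assembly gene Malsu1, in all but FB at E13.5. In 7 tissue-stages a call joined 2 TSS bins of Igf2bp3 itself, 120 kb apart. Such a call was measured from the bin of lower coordinates and so was not counted as downstream, although that bin lies downstream of the coding start. The bins of non-coding transcripts matter little here, as 75 of the 77 interactions end at a bin of a coding transcript.

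Igf2bp1 had scattered partners. Its 96 pooled interactions joined 46 pairs of bins, 23 of them in 1 tissue-stage only, and 47 interactions lay 100 to 200 kb downstream, towards Phospho1, a phosphatase gene of bone mineralisation, and Abi3 and Gngt2. Another 20 lay 800 to 900 kb upstream. At P0 all 10 interactions went 100 to 200 kb downstream, whereas at E12.5 4 of the 7 FB interactions lay 800 to 900 kb upstream. Igf2bp1 has several TSS bins, and the same partner bin was counted from more than 1 of them at P0. At bins of coding transcripts only, the number was 66, with 5 in FB at E12.5 and 5 at P0.

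The replicates shared Hmga2 interactions more often than those of Igf2bp1. Of the Hmga2 interactions of the 12 tissue-stages, 95 were called in both replicates, which is 59.9% of the mean number per replicate, beside 55.8% over all interactions. The share was 51.2% for Igf2bp3 (22 shared) and 22.9% for Igf2bp1 (8 shared). With a partner bin within 10 kb counted as the same, it was 75.1% for Hmga2, 62.8% for Igf2bp3 and 34.3% for Igf2bp1.

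CTCF was found at a larger share of the partner ends of Igf2bp1 than of those of Hmga2 and Igf2bp3. A CTCF peak with a motif in the same tissue-stage was found at 65 of 96 partner ends of Igf2bp1 (67.7%, 95% Wilson interval 57.8 to 76.2), at 91 of 279 of Hmga2 (32.6%, 27.4 to 38.3) and at 23 of 77 of Igf2bp3 (29.9%, 20.8 to 40.8). The share was 44.7% over the interactions of all TSS bins, and the differences between genes were not tested. The intervals cover counting error only, and interactions of neighbouring bins share a peak, so they are too narrow. Igf2bp1 has several TSS bins, and a partner bin was counted once for each of them that contacted it. The bin chr11:95830001-95840000, with CTCF in all 12 lists, was counted from each of them at P0. Hmga2 has a single TSS bin, so its share is not directly comparable. With peaks counted whether or not they hold a motif, the share of Hmga2 was 40.5%.

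**Figure D4:**
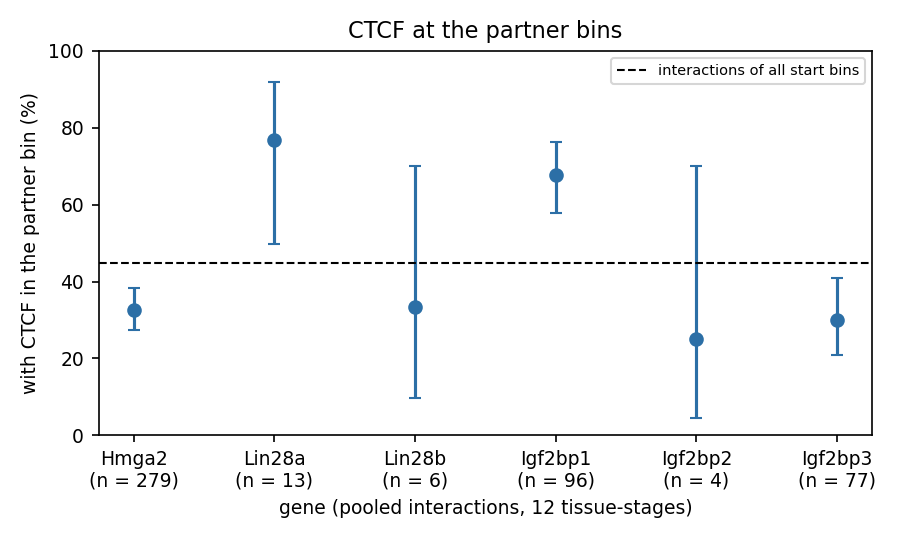
Share of the pooled interactions of each gene with a CTCF peak that holds a motif in the partner bin (y axis, percent), with 95% Wilson intervals as bars and the number of interactions under each gene name (x axis). The dashed line is the share over all TSS bins, 44.7%; Igf2bp1 lies above it at 67.7% and Hmga2 below it at 32.6%.

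The TSS bins differed in CTCF too, and the height of the highest peak, at the coding start or not, did not follow the number of interactions. Lin28b had a peak in 12 of 12 lists, with a fold enrichment over input of 14.1 to 34.1, at the motif printed above, in the bin of its non-coding transcripts, and 6 pooled interactions. Igf2bp2 had a peak of 8.54 to 20.1 in all 12, in a bin of its non-coding transcripts, with 4 interactions. In the bin of its coding start the most recurrent peak was lower, 3.96 to 6.34 in 11 lists, and 3 of the interactions ended there. Igf2bp1 had a highest peak of 6.63 to 21.7 over its TSS bins in all 12, with 96 interactions. Hmga2 had a weak peak, 3.16 to 5.40, in 6 of 12 lists (MB, HB, LM, CF, FB at E14.5 and FB at E15.5). The tissue-stages with that peak had 12 to 44 pooled Hmga2 interactions and those without it 2 to 38, so the ranges overlapped. In the second deposited peak lists the Hmga2 bin had a peak in 3 of 11. Igf2bp3 had peaks in its TSS bins in 2 of 12 lists, none with a motif.

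Of the 2 recurrent CTCF peaks in the TSS bins of Igf2bp1, the one at the start of the coding transcript had a lower fold enrichment at each later FB stage and the other did not. At the coding start, with the motif printed above, the values were 9.64, 6.94, 4.83, 4.33 and 3.39 from E12.5 to E16.5, and no peak was listed there at P0 or in LV. In the bin of 3 non-coding transcripts, chr11:95980001-95990000, the values were 14.2, 12.5, 21.7, 9.06, 6.63 and 8.60 over the 6 FB stages and 20.9 in LV. Each tissue-stage has a single peak list here, so these values carry no replicate error, and the labels give P0 a single CTCF library and call those of E14.5 FB, like those of LV, technical replicates. The peak 180 kb downstream that recurs as a partner of Igf2bp1 did not fall steadily, with 39.3, 44.3, 64.1, 26.6, 38.5 and 27.0 over the same stages and P0.

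The change of let-7 pathway genes and other let-7 targets in FB depended on the scaling to library totals. After scaling, of 24 listed genes of let-7 and small RNA machinery, 11 were tested, and 1 fell and none rose between early and late FB. Of 35 other let-7 targets and embryonic growth genes, 21 were tested, and 5 fell and none rose. Without scaling, 2 machinery genes rose and none fell, and 3 targets rose and 1, Sall4, fell, while over all genes 1501 rose and 21 fell. With TMM scaling 1 machinery gene and 3 targets fell and none rose. The median log2 difference was -0.55 and -0.45 in these lists after scaling, beside 0.15 over all genes tested, of which 4.8% fell and 8.65% rose, and 0.34 and 0.28 without scaling, beside 0.84. Msi1, an RNA-binding protein of neural stem cells that acts with LIN28, had a scaled number of 11.3 ± 4.29 (SD, n = 4) early and 4.62 ± 0.87 late (adjusted p = 0.0238, limma), with means of 9.25 and 8.25 as called (adjusted p = 0.589), and it did not pass in the fit of 12 groups (adjusted p = 0.0557). Sall4, a stem cell transcription factor, had 4.42 ± 1.48 early and 0.359 ± 0.415 late (adjusted p = 0.00859), with means of 3.75 and 0.5 as called (adjusted p = 0.0167). The cyclin genes Ccnd1 and Ccnd2 went from 16.4 ± 6.94 to 5.43 ± 0.984 and from 46.9 ± 13.9 to 24.2 ± 4.33 after scaling, but as called their means were 13.25 and 9.25, and 39.25 and 40.5, and neither passed without scaling. Arid3a, a DNA-binding factor, and Dlk1, an imprinted growth regulator, fell after scaling as well, with adjusted p of 0.0182 and 0.0348, and did not pass without it.

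In the comparison of neural and non-neural tissues none of the 13 machinery genes tested passed. Of 21 targets 1 was higher and 3 lower in neural tissues, where 12.4% of all genes were higher and 6.51% lower. The list medians were -0.01 and -0.34, beside 0.02 over all genes tested. Igf2, the imprinted fetal growth factor, had a scaled number of 1.48 ± 0.953 (SD, n = 8) in neural and 26.5 ± 7.20 (SD, n = 6) in non-neural libraries, and the ranges did not overlap (adjusted p = 3.69e-07, limma). Igf1r, the receptor through which IGF2 signals, had 14.1 ± 2.54 and 32.0 ± 8.37, and Ccnd1 15.4 ± 5.01 and 26.4 ± 6.04, and these did not pass without scaling (adjusted p = 0.236 and 0.563), while Igf2 did (adjusted p = 6.6e-06). E2f6, a repressor of the cell cycle, had 4.05 ± 2.33 in neural libraries and was listed at 0 in all 6 non-neural ones. In LV, where 14.7% of all genes were higher and 12.8% lower, Myc had 90.9 ± 28.7 (SD, n = 2) against 12.6 ± 9.08 (SD, n = 12) elsewhere, Ago2, the slicer of the microRNA complex, 24.6 ± 0.602 against 8.95 ± 1.97, and Trim71, a stem cell gene that let-7 represses, 5.13 ± 2.38 against 0.784 ± 1.18, while Tut4, which tails let-7 precursors bound by LIN28, had 2.27 ± 3.21 against 16.5 ± 7.76. Tnrc6c, Msi1 and Mycn were lower in LV too. Ago2 and Trim71 did not pass without scaling (adjusted p = 0.131 and 0.105), and on simulated data this comparison of 2 libraries with 12 made more false calls than its threshold allows, so the LV calls are less certain than the others. In LM, where 1.65% were higher and 2.6% lower, the imprinted gene Peg10 had 14.7 ± 0.290 against 3.88 ± 1.37 and passed (adjusted p = 0.0336; 0.131 without scaling), and Nr2e1, a neural stem cell receptor gene, was listed at 0 in both LM libraries. In CF no list gene passed.

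The let-7c host locus gained interactions in FB where Hmga2 lost them. Mir99ahg, the non-coding host of miR-99a, let-7c and miR-125b on chromosome 16, had 18, 34, 36, 47, 45 and 43 pooled interactions in FB from E12.5 to P0, and the bin of let-7c, which is also one of the TSS bins of Mir99ahg, had 0, 6, 8, 12, 14 and 11. In single libraries Mir99ahg had 3 and 2, 8 and 8, 23 and 9, 21 and 21, 40 and 24, and 38 and 25 over these stages, as called. Early and late libraries did not overlap. In a fit over all annotated genes, added after the data were seen, the log2 difference of Mir99ahg was 1.65 ± 0.29 (SE; adjusted p = 0.00474) and that of the let-7c bin 2.25 ± 0.40 (adjusted p = 0.0048), where 13% of 8239 genes tested passed, 7.55% with more interactions in the late stages. Of the other let-7 loci only Mirlet7i had enough interactions to be tested. It had scaled means of 9.43 ± 1.74 (SD, n = 4) early and 9.002 ± 1.96 late (adjusted p = 0.874), and the remaining autosomal let-7 loci, not tested, had at most 5 pooled interactions in any tissue-stage. These loci were counted at the bins of the annotated microRNA starts. The listed hosts Mir100hg and Mirlet7bhg were not matched in the annotation, so contacts at their promoters were not counted. A low number here therefore does not show that a host promoter had few contacts.

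**Figure D5:**
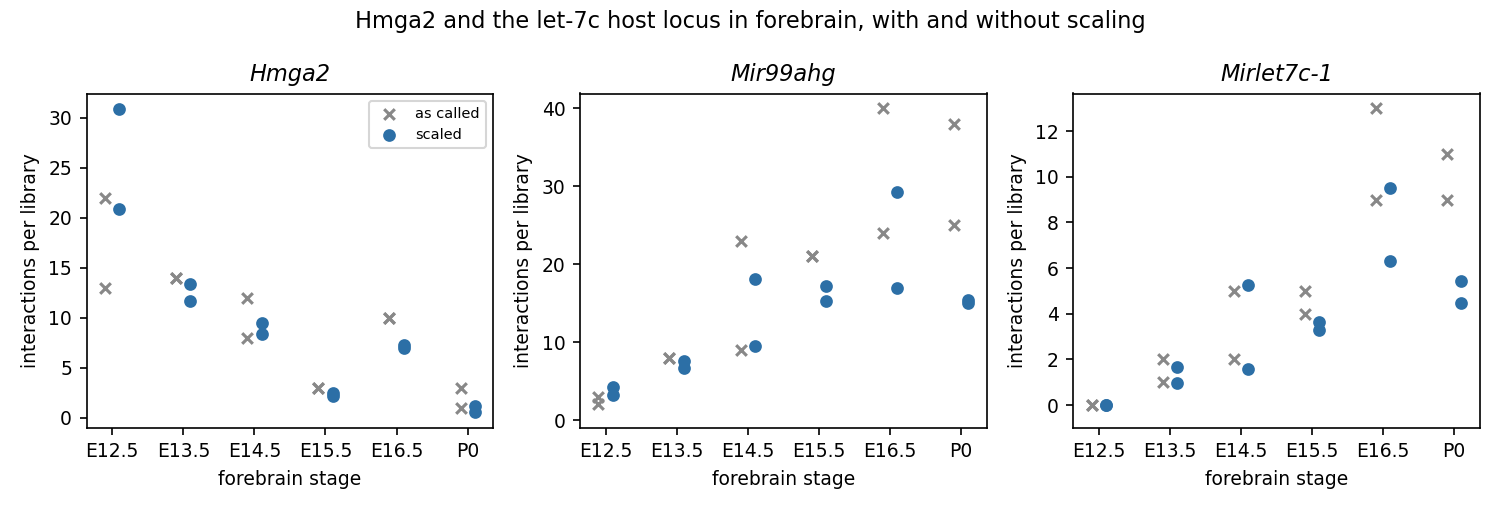
Number of interactions per library (y axis) of Hmga2, the let-7c host Mir99ahg and the let-7c bin (Mirlet7c-1) against FB stage (x axis), as called (crosses) and scaled to the median library total (circles). Hmga2 goes from 22 and 13 as called at E12.5 to 3 and 1 at P0, and Mir99ahg from 3 and 2 to 38 and 25.

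By tissue the 2 loci stood apart as well. Mir99ahg had a scaled number of 5.45 ± 1.63 (SD, n = 8) in neural and 0.467 ± 0.723 (SD, n = 6) in non-neural libraries at E12.5 (log2 difference 2.23 ± 0.34 SE, adjusted p = 0.000154 in limma over all annotated genes, of which 19.2% passed, 12.8% with more interactions in neural tissues), and it was listed at 0 in both LM and both LV libraries. LM had the most Hmga2 interactions, and LV an intermediate number. Both loci were measured in the same libraries, and a relation between them was not tested. Mirlet7i did not follow Mir99ahg by tissue. Its scaled number was 9.47 ± 2.08 (SD, n = 8) in neural and 13.3 ± 6.61 (SD, n = 6) in non-neural libraries (adjusted p = 0.575, limma over all annotated genes). It was highest in LM (18.7 and 16.2) and CF (18.7 and 16.4), where Hmga2 was highest too, and lowest in LV (5.17 and 4.54).

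Genes elsewhere in the genome whose pooled numbers ran most like those of Hmga2 over the 12 tissue-stages were St14 (Pearson r = 0.907), Rsf1 (0.876) and Aamdc (0.876), of 10099 genes compared. For Igf2bp1 they were Snupn (0.975), Gm11084 (0.948) and Ssr1 (0.947), of 10040, and for Igf2bp3 Ephb3 (0.870), Itgb7 (0.856) and Hsd17b14 (0.837), of 10106. These values describe the likeness of 12 points that share libraries and totals, and each is the highest of many. Lin28a had too few interactions for a stable pattern, and Lin28b and Igf2bp2 had pooled means under 1 and were not ranked.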

How the data were processed

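H3K4me3 PLAC-seq and CTCF ChIP-seq of mouse tissues were analysed from the deposited files. The authors aligned reads to mm10 and called interactions with MAPS. The deposited files list called pairs of 10-kb bins, each with a count of observed read pairs, the expected signal of the model and an FDR (a q-value). The authors gave CTCF peaks a fold enrichment over input with MACS2, and their −log10 q values were deposited too. Here, TSSs came from GENCODE M21 on GRCm38 (mm10), and the number of interactions per gene and library was scaled to the median total. Genes with a mean scaled number of at least 1 were tested with limma 3.58.1 (R 4.3.3, trend option, 2-sided) on log2(scaled number + 1), over all autosomal protein-coding genes, with Benjamini-Hochberg adjustment and a threshold of 0.05, so that fold changes of low numbers are understated. CTCF motifs were found with a 19-bp matrix estimated from 5000 peaks at 0.0001 per position. Each side of a comparison pools libraries of several tissues or stages, so the spread behind the p-values includes differences between these as well as between biological replicates, and the alternative with 12 groups rests on replicates alone. The steps were tested on simulated data, where the liver comparison made more false calls than the threshold allows.

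Replicate numbers of different tissue-stages did not pair the libraries (r of replicate differences from -0.0418 to 0.0837 over 15 pairs of FB stages and from -0.0654 to 0.0443 over 21 pairs of tissues). Named genes are the 6 members, list genes past the threshold (up to 5 per list and direction), nearest coding neighbours, partner genes of the most recurrent bins and the 3 most alike genes. The members, lists and tests were chosen with earlier results of these data known. Alternatives were other scalings, filters, pseudocounts and call thresholds, a replicate block, edgeR 4.0.16, DESeq2 1.42.0 and leaving out each library. Flanking bins, the fit over all annotated genes, the slope up to E16.5 and the lists under other scalings were added after seeing the data. Input libraries and 1 peak list with an unclear tissue name were not used here. Python 3.11.15 with pandas 2.3.3 read the files.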

Additional observations from a re-analysis of the deposited data

Results flagged for a closer look

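The Igf2bp1 number of limb replicate 1 was far from the rest of its group. Its scaled number of 12.46 lay above the other 5 non-neural libraries at E12.5, and limb replicate 2 had 2.49. The gap to the next library was 0.672 of the range of the group with the flagged library included. Chance flags about 1 in 20 such groups, and 12 groups of libraries of the tested members were examined.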

How the results depend on the processing

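Each comparison was refitted with other scalings, filters, tests and bins and without each library. The fall of Hmga2 in FB passed the threshold in all alternatives but the one with E16.5 as the only late stage (-1.21, adjusted p = 0.124), and without each library in turn it ranged from -2.63 to -1.84. The neural difference of Hmga2 kept its sign, but the call was lost unscaled (-0.84), with TMM (-1.17), in DESeq2 (-1.05) and with summed read pairs (-1.73), and in 6 fits without 1 library (-1.60 to -1.10 over all 14).

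Members gained a call in the 12-group fit in LM and CF and, for Igf2bp1 in FB (1.75), without scaling. The number of genes called, 723 in late against early FB, was 1522 unscaled (1501 higher and 21 lower, against 465 and 258), 458 with the stricter filter of 3, 155 in DESeq2, 1119 in the 12-group fit, 435 with summed read pairs, 1129 with flanking bins, 1395 for the slope over 6 stages, 37 without P0 and 226 to 1012 without 1 library. In neural against non-neural tissues (1018) it was 608 with the stricter filter, 585 in DESeq2, 2354 in the 12-group fit and 1595 over all annotated genes. For LV (1482) it was 521 in DESeq2, 2922 in the 12-group fit, 2313 with flanking bins and 394 to 1743 without 1 library. For LM (229) it was 136 unscaled, 111 in edgeR, 57 in DESeq2, 1872 in the 12-group fit, 150 at an FDR below 0.01%, 841 without liver and 14 to 474 without 1 library. For CF (1) it was 18 without a filter, 0 at the filter of 3 (limma, 153 genes at an unadjusted p under 0.05), 2 in edgeR, 2 in DESeq2, 528 in the 12-group fit, 4 at an FDR below 0.01%, 19 with summed read pairs, 2 with flanking bins, 23 without liver and 0 to 3 without 1 library. The cause was not tested.

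With the replicate block, which the replicate numbers did not call for, 681 genes passed in FB, 948 in neural tissues, 1403 in LV, 162 in LM and 1 in CF, and no call of a member changed. Differences of members that did not pass changed sign in some settings. These are Hmga2 in LV (-0.55 unscaled, -0.26 TMM, -0.28 edgeR, -0.65 DESeq2, -0.64 read pairs, -0.15 to 0.24 without 1 library), Igf2bp3 in LV (-0.17 unscaled, -0.019 DESeq2, -0.14 to 1.04 without 1 library), Igf2bp3 in FB (-0.033 without P0, -0.021 to 0.89 without 1 library), Igf2bp1 in neural tissues (-0.75 to 0.0050 without 1 library) and Igf2bp3 in CF (-0.92 at an FDR below 0.01%). Of the shares, CTCF at Hmga2 partners moved to 40.5% with all peaks, and replicate agreement of Hmga2 to 75.1% within 10 kb. Libraries with few interactions limit the members with low numbers.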
